A study of Mus musculus with 30 samples.

Results

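Blood vessels of the dorsal hippocampus are represented here by 37 genes of brain endothelial and mural cells, chosen by symbol from the 24883 rows of the expression table. Of them 28 mark endothelial cells, 6 mark pericytes and 3 mark vascular smooth muscle. Each of the 37 had 1 row, and all 37 passed the requirement of a mean of at least 1 FPKM (fragments per kilobase of transcript, scaled to the mapped fragments of the library) that 13184 rows met. Rows were matched by gene name alone, but the list of names was drawn up with earlier results of these data known.

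The study asked how tyrosine 397 of CREST (gene Ss18l1), a subunit of the neuronal BAF chromatin remodelling complex, bears on gene expression after learning. RNA came from the dorsal hippocampus, by the study's methods its CA1 area, of 30 adult male C57BL/6J mice of wild-type genotype, 1 library per mouse, with 6 mice in each of 5 conditions. VEH-HC mice received the in vivo-jetPEI transfection reagent without DNA, were handled and stayed in the home cage. VEH-T10 mice received the same vehicle and 10 min of object location training, and VEH-T3 mice the vehicle and 3 min of training. By the study's methods the task also includes days of habituation to the chamber, while home cage mice were only handled. Comparisons with VEH-HC therefore cover habituation as well as training. In Y397F-T10 a plasmid for mouse CREST with an HA tag and the point mutation Y397F (tyrosine to phenylalanine, labelled phospho-null) preceded 10 min of training, and in Y397D-T3 a plasmid for the point mutant Y397D (tyrosine to aspartate, labelled phospho-mimetic) preceded 3 min. Whether this tyrosine is phosphorylated was not measured in these data. Plasmids went in 3 days before training, under a miniCaMK2 promoter that is active in excitatory neurons and not in vessel cells, endogenous CREST stayed in place in all mice, and trained mice were sampled 1 h after training. No condition combined an empty plasmid with training, and no plasmid was given to home cage mice.

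Brain capillaries are tubes of endothelial cells sealed by tight junctions, and solutes cross this blood-brain barrier mainly through transporters in the endothelial membranes. Pericytes lie on the capillaries within the basement membrane, and smooth muscle cells wrap the arterioles and set their width. In tissue RNA these cells contribute a small part. Fewer vessel cells and less RNA per cell cannot be told apart in RNA of whole tissue.

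The labelled cell types were present in every library. Cldn5, the claudin of brain endothelial tight junctions, averaged 40.7 FPKM over the 30 mice, Flt1, the VEGF receptor 1, averaged 6.7 FPKM, and Rgs5, a G protein signalling regulator typical of pericytes, averaged 17.6 FPKM. The lowest value of any member in any mouse was 0.612 FPKM, for Anpep. The endothelial markers Cldn5 and Flt1, the neighbouring transporters Slco1a4 and Slco1c1, the pericyte marker Rgs5 and the contractile gene Myl9 are compared below. The sequences upstream of the start sites of these 6 members are shown. Each is the 250 bases before the RefSeq start on GRCm38.p6 (mm10 is the same assembly), read 5′ to 3′ on the gene's strand. Capitals mark GGAAG on either strand, 1 form of the site of ETS transcription factors, in the first 5. In Myl9 they mark the CArG box bound by serum response factor. Other forms of the ETS site were not marked or counted.
Cldn5: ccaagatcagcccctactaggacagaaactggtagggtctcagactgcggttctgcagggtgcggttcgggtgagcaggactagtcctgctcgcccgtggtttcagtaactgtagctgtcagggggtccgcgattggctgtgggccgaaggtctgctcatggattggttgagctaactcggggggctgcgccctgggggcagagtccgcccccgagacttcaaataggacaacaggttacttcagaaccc
Flt1: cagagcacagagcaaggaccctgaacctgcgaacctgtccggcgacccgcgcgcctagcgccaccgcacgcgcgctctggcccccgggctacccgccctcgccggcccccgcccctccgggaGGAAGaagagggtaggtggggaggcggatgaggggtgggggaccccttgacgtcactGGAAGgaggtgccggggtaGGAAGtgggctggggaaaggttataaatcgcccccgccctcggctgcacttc
Slco1a4: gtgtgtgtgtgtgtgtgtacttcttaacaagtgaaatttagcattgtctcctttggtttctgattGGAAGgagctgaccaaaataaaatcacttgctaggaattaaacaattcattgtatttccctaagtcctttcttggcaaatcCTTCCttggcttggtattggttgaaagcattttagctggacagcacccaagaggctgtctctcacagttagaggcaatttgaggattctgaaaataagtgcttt
Slco1c1: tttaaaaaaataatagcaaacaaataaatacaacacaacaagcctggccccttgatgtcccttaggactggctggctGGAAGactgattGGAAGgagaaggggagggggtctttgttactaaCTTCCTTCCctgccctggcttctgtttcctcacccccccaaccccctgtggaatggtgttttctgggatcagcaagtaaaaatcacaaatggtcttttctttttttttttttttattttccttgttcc
Rgs5: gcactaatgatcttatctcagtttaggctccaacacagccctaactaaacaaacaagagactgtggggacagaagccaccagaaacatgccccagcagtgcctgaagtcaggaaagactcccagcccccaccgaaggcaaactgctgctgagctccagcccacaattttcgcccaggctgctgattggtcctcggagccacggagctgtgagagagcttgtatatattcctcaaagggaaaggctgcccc
Myl9: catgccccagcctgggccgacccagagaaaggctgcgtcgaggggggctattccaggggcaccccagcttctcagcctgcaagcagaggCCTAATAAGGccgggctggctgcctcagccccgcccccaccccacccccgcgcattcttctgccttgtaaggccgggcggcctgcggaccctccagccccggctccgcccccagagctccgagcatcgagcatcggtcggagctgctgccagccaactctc

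These windows lie at chr16:18776597-18776846 on the plus strand for Cldn5, chr5:147726012-147726261 on the minus strand for Flt1, chr6:141856221-141856470 on the minus strand for Slco1a4, chr6:141524104-141524353 on the plus strand for Slco1c1, chr1:169655251-169655500 on the plus strand for Rgs5 and chr2:156775214-156775463 on the plus strand for Myl9. A promoter was found for 26 of the 37 members. GGAAG occurred in 61.5% of these 26 windows and in 63.6% of the 27025 promoters of the same length. Flt1 held 3 copies of GGAAG, Slco1c1 4, Slco1a4 2, and Cldn5 and Rgs5 none in this window. The strict CArG box occurred in 1 of the 26 members, Myl9, and in 1.4% of all promoters.

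Levels in FPKM, which are per length and can be compared between genes, spanned a wide range. Bsg, the basigin chaperone of monocarboxylate transporters, which neurons and epithelia also make, was highest with a mean of 377.6 FPKM. Then came Vtn, the pericyte-secreted vitronectin (41.1 FPKM), the endothelial surface protein gene Ly6c1 (41.0 FPKM), Cldn5, and the glucose transporter gene Slc2a1 (39.0 FPKM). The lowest were the ETS factor gene Erg (1.34 FPKM) and Abcc9, a subunit of the potassium channels of pericytes (1.11 FPKM). The coefficient of variation over the 30 mice was lowest for Tek, the angiopoietin receptor (10.7%), and for Egfl7, a secreted endothelial protein (10.8%). It was highest for Anpep, the aminopeptidase N of pericytes (56.5%), for Acta2, smooth muscle actin (41.0%), for the thyroxine transporter gene Slco1c1 (40.8%) and for Tagln, an actin-binding protein of smooth muscle (39.4%).

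Some facts of the libraries touch these genes. The library medians of log2(FPKM + 1) lay between 3.33 and 3.503, relative depth, read from single-fragment steps in low rows, lay between 0.813 and 1.23 of the median library, and no pair of libraries was identical. Ttr, the transthyretin of choroid plexus epithelium, ranged from 5.89 to 12450 FPKM with no library between 344.0 and 890.3 FPKM. All 6 VEH-HC libraries lay above that gap, as did 4 of VEH-T3, 2 each of VEH-T10 and Y397F-T10, and 1 of Y397D-T3. The summed level of 11 choroid plexus markers was 1086 to 6437 FPKM in VEH-HC and 47.1 to 3230 FPKM in Y397D-T3. The sum of 11 markers of meningeal fibroblasts was 112.3 to 188.0 FPKM and 41.9 to 116.1 FPKM in the same conditions, and that of 8 thalamic markers 46.2 to 85.3 FPKM and 30.4 to 43.1 FPKM. Sums of red blood cell markers overlapped among all 5 conditions (VEH-HC 939.3 to 1874 FPKM, Y397D-T3 1107 to 3257 FPKM), but all 6 tested markers were above 0 in each of the 4 comparisons with VEH-HC. One of them, the beta globin gene Hbb-bs, rose in VEH-T3 and in Y397D-T3 (means of 0.001998 FPKM in VEH-HC, 14.4 FPKM in VEH-T3 and 39.8 FPKM in Y397D-T3, limma adjusted p = 0.0244 and 0.00134, higher in 6 of 6 mice in both). Its value is uncertain because near-identical globin genes share its reads.

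After 3 min of training with vehicle (VEH-T3 against VEH-HC), 2 members, Flt1 and Rgs5, rose and 1, Slc7a5, fell at an adjusted p under 0.05 (limma on log2(FPKM + 1) of all 30 libraries, Benjamini-Hochberg over 13184 rows). That is 3 of 37 members beside 5.17% of all tested rows (2.23% raised and 2.94% lowered), a share near the background. The Cyber-T-style test, which resembles the one of the study and is not adjusted over rows, called Rgs5 and Slc7a5 (2 of 37, beside 5.02% of rows), and an unadjusted limma p under 0.05 called the same 3 members (beside 21.6%). No member was free of overlap between the mice in either direction, as 1.31% of rows were with lower and 0.675% with higher values. The median difference of the members was -0.06 log2, beside -0.04 over all rows, and 26 of 37 were below 0, beside 8039 of 13184 rows. Markers of other tissue moved too. All 11 choroid plexus markers and all 10 microglia markers were below 0 with none called, the thalamic marker Calb2 fell (-1.37, limma adjusted p = 0.0299, lower in 6 of 6 mice), and Hbb-bs rose as given above. Their part in the members' values was not tested beyond a fit with log2 Ttr as a covariate, added after the data were seen, in which Flt1 missed the threshold (adjusted p = 0.0592) and Rgs5 and Slc7a5 passed (0.0451 and 0.0205).

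Flt1 (chr5:147561604-147726011, minus strand) encodes the VEGF receptor that mostly holds the ligand away from the signalling receptor Kdr. Its lowest, median and highest values were 5.14, 6.13 and 6.94 FPKM in VEH-HC and 6.495, 7.19 and 8.67 FPKM in VEH-T3. All 6 VEH-T3 mice lay above the VEH-HC median and 4 lay above the highest VEH-HC mouse. The difference in mean log2(FPKM + 1) was 0.24 ± 0.07 (SE, 6 mice per condition, limma adjusted p = 0.0492). The call was lost without any single one of VEH-HC mice 2 to 5 or VEH-T3 mice 2, 3 and 6, with adjusted p up to 0.155.

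Rgs5 (chr1:169655501-169695813, plus strand) had lowest, median and highest values of 12.2, 15.0 and 19.1 FPKM in VEH-HC and 17.0, 19.3 and 21.6 FPKM in VEH-T3. VEH-HC mice 1 and 6 reached the VEH-T3 range and the other 4 lay below it. The difference was 0.29 ± 0.08 (SE, limma adjusted p = 0.0430), and it was lost without any single one of VEH-HC mice 2 to 5 or VEH-T3 mice 2 to 6 (adjusted p up to 0.129). The other 5 pericyte genes, for the PDGF receptor beta, vitronectin, aminopeptidase N, the channel subunit Abcc9 and the receptor Notch3, had differences of -0.09 to 0.09 and none passed. Myl9 of smooth muscle, the regulatory myosin light chain, had the largest negative difference of all members, with lowest, median and highest values of 10.6, 15.2 and 17.2 FPKM in VEH-HC and 8.05, 12.7 and 21.6 FPKM in VEH-T3. The groups overlapped, and the difference of -0.25 ± 0.18 did not pass (SE, limma adjusted p = 0.454). It was -0.40 without VEH-T3 mouse 5 and -0.14 without VEH-T3 mouse 1.

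Slc7a5 (chr8:121881150-121907694, minus strand) encodes the large neutral amino acid transporter LAT1, which endothelial cells hold at high levels and neurons and glia at lower ones. Its lowest, median and highest values were 24.1, 26.7 and 29.1 FPKM in VEH-HC and 18.9, 22.3 and 25.7 FPKM in VEH-T3. All 6 VEH-T3 mice lay below the VEH-HC median. The difference was -0.24 ± 0.07 (SE, limma adjusted p = 0.0499). It was lost without any single one of VEH-HC mice 1, 2, 4 and 5 or VEH-T3 mice 2, 3, 4 and 6 (adjusted p up to 0.123) and with the replicate number as a block (adjusted p = 0.0660).

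**Figure D1:**
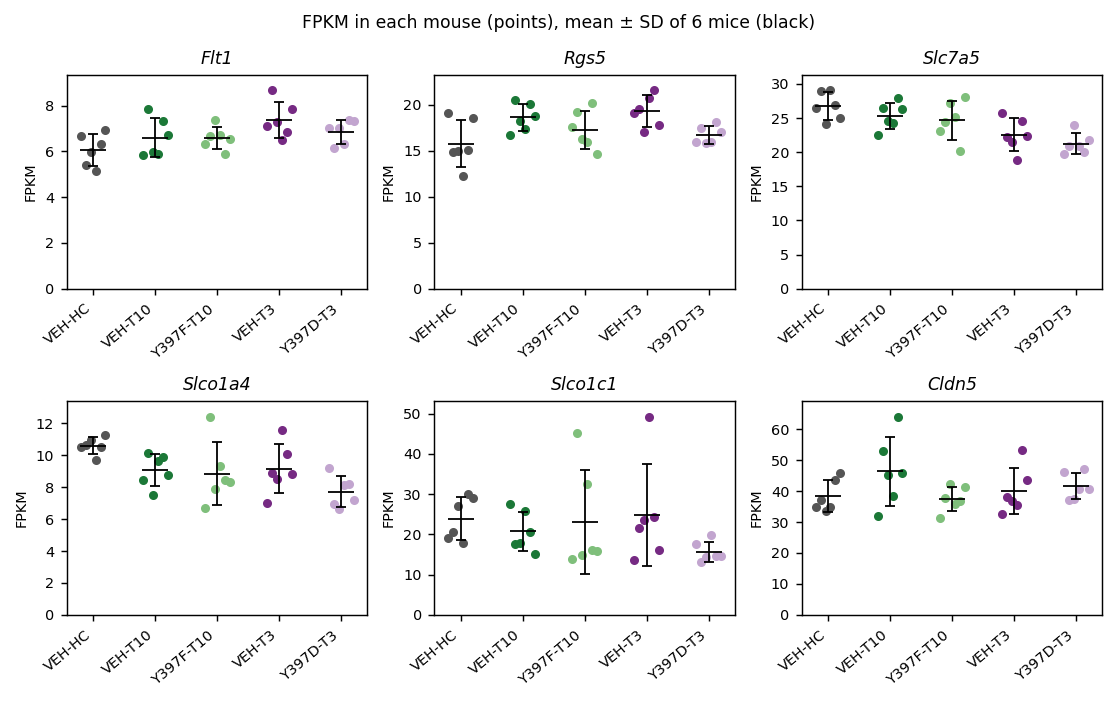
FPKM (y axis, linear from 0) of 6 members in each mouse (points) by condition (x axis), with the mean and SD of 6 mice in black. Slc7a5 and Slco1a4 of Y397D-T3 lie below every VEH-HC mouse, while Flt1 and Rgs5 of VEH-T3 overlap VEH-HC, and Slco1c1 has single mice far above the rest in Y397F-T10 and VEH-T3.

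In the Y397D-T3 condition against VEH-HC, 2 members, the transporter genes Slc7a5 and Slco1a4, fell and none rose (adjusted p under 0.05, beside 7.07% of all tested rows called, 3.16% lowered and 3.91% raised). Both were also free of overlap between the mice, as were 3.02% of all tested rows in that direction. The median difference of the 37 members was -0.13 log2, with 32 of 37 below 0, beside a median of -0.03 and 59.6% below 0 over all tested rows. With each library centred on its median, the share below 0 was 78.4% of the members and 49.3% of all rows. At an unadjusted limma p under 0.05 there were 10 members beside 24.9% of rows, and by the Cyber-T-style test 6 beside 8.11% (Slc7a5, Slco1a4, Slco1c1, Itm2a, Myl9 and Tagln).

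By role, 8 of 8 transporter genes were below 0 (median -0.25), 3 of 3 smooth muscle genes (-0.47), 5 of 6 junction and adhesion genes (-0.12), 4 of 5 receptor genes (-0.06), 5 of 5 genes of surface and secreted proteins (-0.04), 3 of 4 transcription factor genes (-0.06) and 4 of 6 pericyte genes (-0.10). With libraries centred on their medians, the share below 0 was 60.0% for receptor genes (median -0.02) and for genes of surface and secreted proteins (-0.004). The shares of the other roles did not change. Markers of other tissue moved with this comparison. All 11 choroid plexus markers were below 0 with none called, and all 7 tested thalamic markers with 3 called. All 11 meningeal markers were below 0 with 1 called (Dcn, a proteoglycan of fibroblasts, -1.06). Of 10 neuron markers 4 were below 0 (median 0.04, range -0.22 to 0.29). Of these 10, Rbfox3 and Camk2a were called and rose by 0.29 and 0.24. All 6 red blood cell markers were above 0 with 1 called (Hbb-bs), and 9 of 10 microglia markers were below 0 with none called. Their part in the members' values was not tested beyond the covariate fit for Ttr given with each gene.

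Slc7a5 had lowest, median and highest values of 19.7, 20.9 and 24.0 FPKM in Y397D-T3, all below the lowest VEH-HC mouse at 24.1 FPKM. The difference was -0.32 ± 0.07 (SE, 6 mice per condition, limma adjusted p = 0.00868), and it held without any 1 mouse, with adjusted p of 0.00590 to 0.0255. With log2 Ttr of each library as a covariate, an alternative added after the data were seen, it was -0.39 (adjusted p = 0.00693). In the libraries with Ttr of at least 500 FPKM, of which 1 was from Y397D-T3, it was -0.33 (adjusted p = 0.466). It also passed, with a smaller size, in VEH-T3, which shares the VEH-HC mice.

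Slco1a4 (chr6:141805440-141856199, minus strand) encodes an organic anion transporter of the barrier that carries steroid conjugates and many drugs. Its lowest, median and highest values were 9.69, 10.6 and 11.3 FPKM in VEH-HC and 6.67, 7.67 and 9.20 FPKM in Y397D-T3, with no overlap. The difference was -0.42 ± 0.10 (SE, limma adjusted p = 0.0158), with adjusted p of 0.00943 to 0.0416 when any 1 mouse was left out. With log2 Ttr as a covariate it was -0.27 and no longer passed (adjusted p = 0.111). Among the libraries with Ttr of at least 500 FPKM only 1 was from Y397D-T3, and there the difference was -0.35 (adjusted p = 0.569), with that mouse assumed to vary like the others.

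The largest negative difference was that of Slco1c1 (chr6:141524368-141570177, plus strand), the gene of the thyroxine transporter OATP1C1, which choroid plexus epithelium and astrocytes also use. It lies 235.3 kb from Slco1a4. Its lowest, median and highest values were 17.8, 23.8 and 30.1 FPKM in VEH-HC and 13.1, 14.7 and 19.8 FPKM in Y397D-T3, so that 5 of 6 Y397D-T3 mice lay below every VEH-HC mouse. The difference of -0.56 ± 0.26 (SE) did not pass over all 30 libraries (limma adjusted p = 0.170). The SD was 12.9 FPKM in Y397F-T10 and 12.7 FPKM in VEH-T3, beside 5.37 and 2.49 FPKM in VEH-HC and Y397D-T3. It passed when only the 12 libraries compared were fitted (adjusted p = 0.0178), and it was -0.0038 with log2 Ttr as a covariate (adjusted p = 0.995).

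Sox18, an endothelial transcription factor gene of the SoxF group, had the largest positive difference, with lowest, median and highest values of 4.03, 6.23 and 7.13 FPKM in VEH-HC and 6.47, 7.26 and 9.55 FPKM in Y397D-T3. The difference was 0.30 ± 0.11 (SE, limma adjusted p = 0.102). The smooth muscle genes had differences of -0.52 for Tagln, -0.47 for Myl9 and -0.38 for Acta2, and none passed. Tagln was below the VEH-HC median in 6 of 6 Y397D-T3 mice.

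After 10 min of training no member passed, with vehicle or with the Y397F plasmid, against VEH-HC (0 of 37 in both, beside 0.819% and 1.13% of all rows). At an unadjusted p under 0.05, limma gave 2 members in VEH-T10 (Rgs5 and Sox18) and 2 in Y397F-T10 (Egfl7 and Slco1a4), beside 14.9% and 16.9% of all rows. The Cyber-T-style test gave 1 (Rgs5) and 0, beside 3.41% and 3.31%. The median difference of the members was -0.002 log2 in VEH-T10 and -0.03 in Y397F-T10, beside -0.03 and -0.04 over all rows. In VEH-T10 51.4% of the members were below 0, beside 59.7% of all tested rows. After centring libraries on their medians these shares were 32.4% and 47.6%. Markers of other tissue moved in both conditions. All 11 choroid plexus markers were below 0 with none called (medians -1.83 in VEH-T10 and -1.49 in Y397F-T10). All 7 tested thalamic markers were below 0 with 1 called, Slc17a6 (-1.08 and -1.12, limma adjusted p = 0.0310 and 0.0313). Of 10 microglia markers, 0 were below 0 in VEH-T10 and 4 in Y397F-T10, none called. Their part in the members' values was not tested.

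Acta2 had the largest negative difference in both conditions. Its lowest, median and highest values were 4.30, 6.27 and 7.85 FPKM in VEH-HC, 3.31, 4.15 and 6.32 FPKM in VEH-T10 and 2.50, 4.34 and 5.73 FPKM in Y397F-T10, and all groups overlapped. The differences were -0.38 ± 0.23 (limma adjusted p = 0.458) and -0.44 ± 0.23 (adjusted p = 0.329). The largest positive ones were Sox18 in VEH-T10 at 0.26 ± 0.11 (adjusted p = 0.270, 0.17 without VEH-HC mouse 5) and Fli1, an ETS factor gene of endothelial and blood cells, in Y397F-T10 at 0.26 ± 0.13 (adjusted p = 0.318). All 4 comparisons with VEH-HC share the same 6 home cage mice.

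The plasmids were compared with vehicle at the same training time. The vehicle held no DNA and no mice received wild-type CREST. Delivery of DNA, added CREST and the point mutation therefore cannot be told apart in these comparisons. No member passed for Y397F-T10 against VEH-T10, where 0% of all rows did (0 of 13184), or for Y397D-T3 against VEH-T3, where 0.00758% of all rows (1 row) did. At an unadjusted p under 0.05, limma gave 1 member (Cldn5) beside 3.78% of rows and 2 members (Abcg2 and Rgs5) beside 7.87%. The Cyber-T-style test gave 0 beside 0.228% and 1 (Slco1c1) beside 0.728%. In Y397D-T3 against VEH-T3 all 9 mural genes and 22 of 28 endothelial genes were below 0, with a median of -0.09 over the 37 members and 0.00 over all rows, of which 49.1% were below 0. Markers of some other tissues had the same sign with none called. Below 0 were 11 of 11 choroid plexus markers (median -1.41), 10 of 11 meningeal (-0.38), 7 of 7 thalamic (-0.19) and 11 of 11 oligodendrocyte markers (-0.18). Of 10 neuron markers 1 was below 0 (median 0.11), and of 6 red blood cell markers 1 (0.096). Of 10 microglia markers 5 were below 0, and of 10 astrocyte markers 5. None of these markers was called either. Their part in the members' values was not tested.

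Cldn5 (chr16:18776847-18778262, plus strand) had lowest, median and highest values of 32.0, 45.6 and 64.0 FPKM in VEH-T10 and 31.3, 37.2 and 42.4 FPKM in Y397F-T10. All 6 Y397F-T10 mice lay below the VEH-T10 median, and 4 VEH-T10 mice lay above every Y397F-T10 mouse. The difference was -0.27 ± 0.12 (SE, 95% interval -0.53 to -0.02, limma adjusted p = 1.00). It was -0.18 without VEH-T10 mouse 5 and -0.37 without VEH-T10 mouse 1, and its sign turned (0.0616) in the libraries with Ttr of at least 500 FPKM. In the other conditions Cldn5 had medians of 36.0 FPKM in VEH-HC, 37.3 FPKM in VEH-T3 and 40.7 FPKM in Y397D-T3, differences within the spread of the mice.

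The largest positive difference between Y397F-T10 and VEH-T10 was 0.11 ± 0.16 for Bsg, which turned to -0.01 without Y397F-T10 mouse 2. In Y397D-T3 against VEH-T3, Slco1c1 had the largest negative value (-0.52 ± 0.26, limma adjusted p = 0.633) and Sox18 the largest positive one (0.16 ± 0.11, adjusted p = 0.737). Slco1c1 was -0.30 without VEH-T3 mouse 4, and Sox18 was 0.10 without Y397D-T3 mouse 5. The test of whether the Y397F effect at 10 min and the Y397D effect at 3 min differed passed for 0 members (0.0303% of all rows, limma) and for 2 at an unadjusted p under 0.05, beside 9.08% of rows: Sox18 with -0.39 ± 0.16 (adjusted p = 0.462) and Abcg2 with 0.28 ± 0.12 (adjusted p = 0.472). The Cyber-T-style test was not run for this contrast.

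The vehicle conditions were also compared with each other. In VEH-T10 against VEH-T3, 0 members passed beside 0.0455% of all rows, with 1 at an unadjusted limma p under 0.05 (Slc7a5, beside 8.15% of rows) and 0 by the Cyber-T-style test (0.614% of rows). Anpep had the largest positive difference (0.28 ± 0.27, limma adjusted p = 0.821), with VEH-T10 mouse 5 at 5.30 FPKM beside a VEH-T10 median of 2.26 FPKM, and it was 0.09 without that mouse. Ocln, the gene of the tight junction protein occludin, had the largest negative one (-0.18 ± 0.18, adjusted p = 0.831), which was -0.04 without VEH-T3 mouse 4 and -0.29 without VEH-T3 mouse 1.

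**Figure D2:**
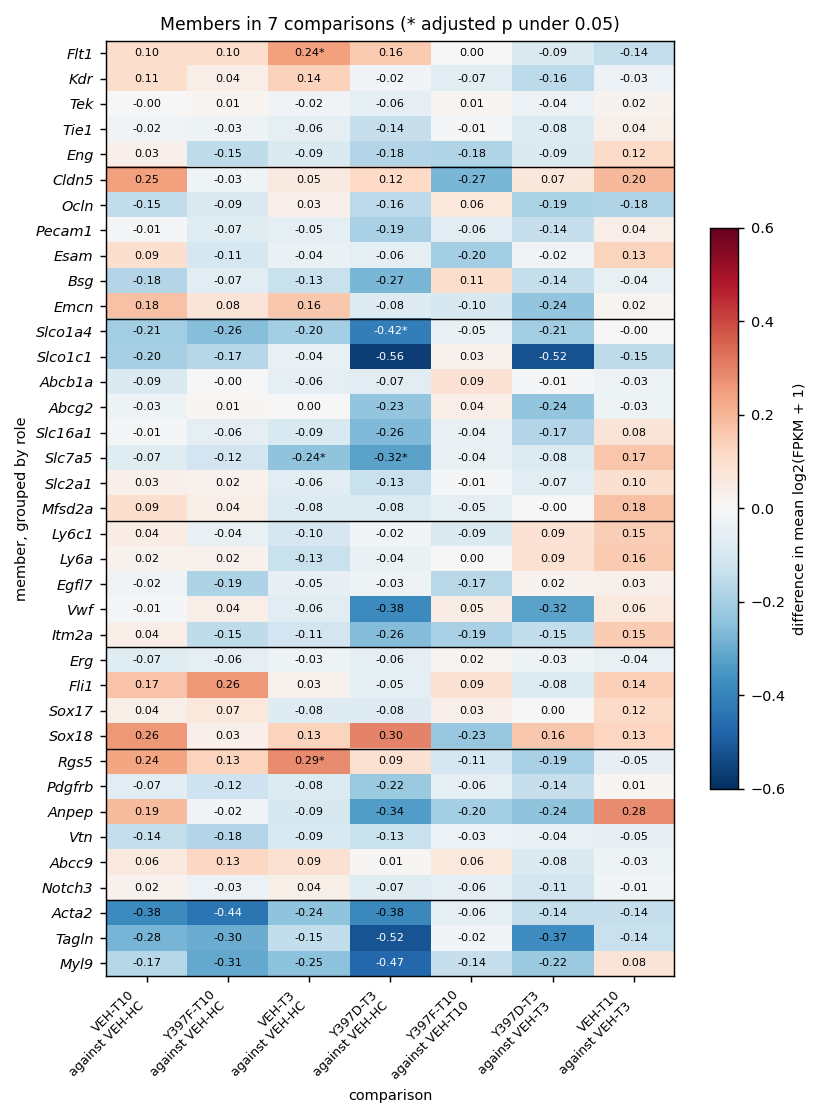
Difference in mean log2(FPKM + 1) (colour and number) of the 37 members (rows, grouped by role) in 7 comparisons (columns), with an asterisk at an adjusted p under 0.05. The 5 asterisks are Flt1, Slc7a5 and Rgs5 in VEH-T3 and Slc7a5 and Slco1a4 in Y397D-T3, both against VEH-HC, and the 3 smooth muscle rows at the bottom are below 0 in all comparisons with VEH-HC.

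Ligands and regulators outside the 37 genes gave a few calls, from lists drawn up by pathway. Each call was 1 gene of its list, beside 5.17% of all rows called in VEH-T3, 1.13% in Y397F-T10 and 7.07% in Y397D-T3 against VEH-HC. Of 10 tested genes of VEGF and angiopoietin signalling, Vegfb, a ligand of Flt1, fell in VEH-T3 against VEH-HC (54.8 ± 4.95 FPKM in VEH-HC, 45.7 ± 6.34 in VEH-T3, SD, difference -0.26 ± 0.08, limma adjusted p = 0.0477, lower than the VEH-HC median in 5 of 6 mice). Nrp1, a coreceptor of VEGF that neurons also make, rose in Y397F-T10 against VEH-HC (18.03 ± 1.53 to 21.96 ± 1.46 FPKM, 0.27 ± 0.06, adjusted p = 0.0313, higher in 6 of 6 mice). No other VEGF list gene passed in these 7 comparisons.

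Of 15 tested genes of the Wnt signal that maintains the barrier, Wnt7b, a ligand made by neurons and glia, fell in VEH-T3 against VEH-HC (16.8 ± 1.43 to 12.6 ± 2.43 FPKM, -0.39 ± 0.11, limma adjusted p = 0.0372, lower in 5 of 6 mice). Of the 15 genes, 14 were below 0 in VEH-T3 and Y397F-T10 and 13 in VEH-T10 and Y397D-T3, each against the same VEH-HC mice. Of 18 tested genes of PDGF, TGF-beta and Notch signalling in vessels, Hey2, a Notch target of arteries, fell in Y397D-T3 against VEH-HC (1.81 ± 0.28 to 1.01 ± 0.27 FPKM, -0.49 ± 0.14, adjusted p = 0.0340, lower in 6 of 6 mice). Of the 18, 15 were below 0 in both plasmid conditions, 13 in VEH-T3 and 10 in VEH-T10. Over all tested rows, 59.6% to 63.7% were below 0 in these comparisons with VEH-HC. With libraries centred on their medians, the share of the 18 was 72.2% in Y397F-T10, 66.7% in Y397D-T3 and 72.2% in VEH-T3. All rows then had 54.9%, 49.3% and 54.6%. After centring, the plasmid conditions thus no longer stood above VEH-T3, and the share in VEH-T10 was the lowest.

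The members also varied between mice of 1 condition. After the condition means were removed, the median Pearson r over the 666 pairs of members was 0.37, with 598 pairs above 0, beside 0.03 over all pairs of tested rows. It was 0.40 among endothelial genes, 0.36 among pericyte genes, 0.63 among the 3 smooth muscle genes and 0.33 between endothelial and pericyte genes. With libraries centred on their medians the value over members was 0.24 and that over all rows 0.02. These points share the library, and no p is given.

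**Figure D3:**
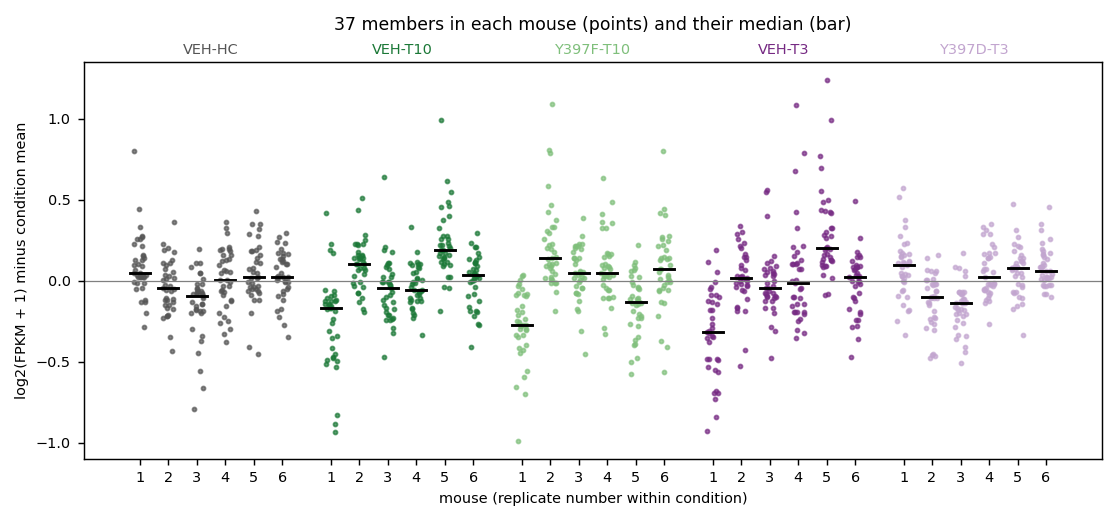
Deviation of log2(FPKM + 1) from the condition mean (y axis) of the 37 members (points) in each mouse (x axis), with the median of the members as a bar. The bar is lowest for VEH-T3 mouse 1 (-0.32) and Y397F-T10 mouse 1 (-0.27) and highest for VEH-T3 mouse 5 (0.20) and VEH-T10 mouse 5 (0.19).

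Some mice stood at the edge of their condition for many members, and how much of the shared variation they carry was not tested. VEH-T3 mouse 1 had the lowest value of its condition in 26 of 37 members, Y397F-T10 mouse 1 in 24 and VEH-T10 mouse 1 in 22, while VEH-T3 mouse 5 had the highest in 23 and VEH-T10 mouse 5 in 21. The library medians moved the same way for all of these mice. Those of VEH-T3 mouse 1 (3.33, the lowest of all), Y397F-T10 mouse 1 (3.358) and VEH-T10 mouse 1 (3.394) were the lowest of their conditions. Those of VEH-T3 mouse 5 (3.499) and VEH-T10 mouse 5 (3.47) were the highest of theirs. In VEH-T3 mouse 5 Acta2 reached 13.0 FPKM and Tagln 13.8 FPKM, beside condition medians of 3.65 and 5.76 FPKM.

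The genes nearest the middle of this shared variation were Slc2a1 (median r with the other members 0.60), Vwf, the von Willebrand factor of endothelium (0.58), Tie1, an orphan endothelial receptor (0.56), and Pecam1, an endothelial adhesion molecule (0.55). These genes also followed the library median, with r of 0.70 for Slc2a1, 0.59 for Vwf, 0.62 for Tie1 and 0.435 for Pecam1. Cldn5 followed Slc16a1, the monocarboxylate transporter 1, most closely (r = 0.78), and Ly6a followed Vwf (r = 0.85). Egfl7 (0.08) and Mfsd2a, the lipid transporter that limits transcytosis at the barrier (-0.05), stood outside. Rgs5 had a median r of 0.16, below the other pericyte genes.

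**Figure D4:**
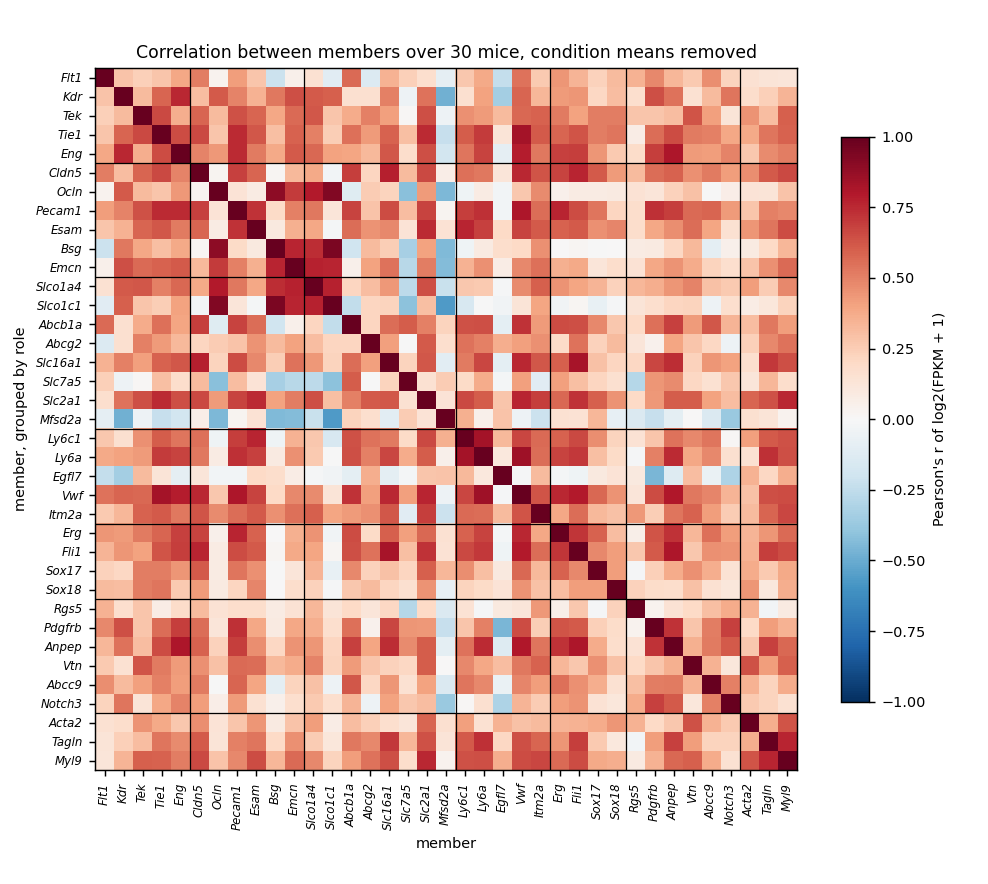
Pearson's r (colour, from -1 to 1) of log2(FPKM + 1) between members over 30 mice after the condition means were removed, with members grouped by role. Most cells are above 0, Ocln, Bsg, Emcn, Slco1a4 and Slco1c1 follow each other closely (Bsg with Slco1c1 0.943), and Egfl7 and Mfsd2a stand apart.

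Of 12 pairs of members tested over the 30 mice (100000 permutations, two-sided, Benjamini-Hochberg over the 12), 5 passed. Ly6c1 and Ly6a, neighbours on chromosome 15 separated by 46.0 kb and members of a family of similar sequence, gave r = 0.83 and Spearman's rho = 0.79 (permutation adjusted p = 0.00012 for both, from the smallest p that the permutations can give, 1e-05), and r = 0.76 without the 2 mice farthest from the median of Ly6c1. Their reads may be hard to separate. Cldn5 with Ly6c1 gave r = 0.53 and rho = 0.53 (permutation adjusted p = 0.00964 and 0.0126), and r = 0.51 without 2 mice.

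Cldn5 with Flt1 gave r = 0.42 and rho = 0.50 (permutation adjusted p = 0.04997 and 0.0168), r = 0.42 without 2 mice, and r = 0.51 within conditions (adjusted p = 0.0106). With libraries centred on their medians it no longer passed (r = 0.38, adjusted p = 0.105). Acta2 with Myl9 gave r = 0.65 and rho = 0.62 (permutation adjusted p = 0.00060 and 0.00246), and r = 0.53 without 2 mice. Acta2 with Tagln gave r = 0.43 and rho = 0.35 (permutation adjusted p = 0.0479 and 0.144), which fell to r = 0.16 without the 2 mice farthest from the median of Acta2, so it rested on them, and with centred libraries it did not pass either (r = 0.37, adjusted p = 0.105). Within conditions Acta2 with Cldn5 passed as well (r = 0.47, adjusted p = 0.0246, but r = 0.28 without 2 mice) and Acta2 with Tagln did not (r = 0.37, adjusted p = 0.0928).

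The other 7 pairs did not pass. Rgs5 gave r = 0.05 and rho = 0.12 with Vtn (permutation adjusted p = 0.865 and 0.720), r = 0.01 and rho = 0.04 with Pdgfrb (0.966 and 0.854) and r = 0.15 and rho = 0.04 with Acta2 (0.578 and 0.854). Acta2 with Cldn5 gave r = 0.33 and rho = 0.21 (permutation adjusted p = 0.119 and 0.385). Flt1 with Kdr gave r = 0.32 and rho = 0.30 (permutation adjusted p = 0.119 and 0.213), Cldn5 with Rgs5 r = 0.35 and rho = 0.24 (0.119 and 0.338), and Cldn5 with Slco1c1 r = -0.09 and rho = -0.04 (0.754 and 0.854).

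A group of 5 members went with Ttr. Within conditions the correlation with log2 Ttr was 0.87 for Slco1c1, 0.81 for Bsg, 0.80 for Ocln, 0.77 for Emcn, the endothelial sialomucin, and 0.59 for Slco1a4, beside -0.18 for Cldn5. Kdr was next at 0.55. The same 5 also followed the library median, with r of 0.72 for Slco1c1, 0.71 for Bsg and 0.73 for Ocln. For Emcn (0.80) and Slco1a4 (0.77) that r was above the one with Ttr. It was as high for some members outside the 5, such as Itm2a (0.76), Myl9 (0.71) and Slc2a1 (0.70). For Cldn5 it was 0.495, for Flt1 0.09 and for Mfsd2a -0.35. These 5 genes were chosen for their correlation with Ttr in these libraries, so the values that follow are a description with no test. Because Ttr split the libraries into clusters, r is given within each.

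In the 15 libraries with Ttr of at least 500 FPKM, Slco1c1 gave r = 0.95 and rho = 0.95, and r = 0.94 without the 2 libraries farthest from the median of Ttr. Ocln gave r = 0.90 and rho = 0.85, and Bsg r = 0.87 and rho = 0.89, with r = 0.83 and r = 0.92 without 2. Emcn (r = 0.56, rho = 0.61) and Slco1a4 (r = 0.48, rho = 0.40) had lower values, and Cldn5 had r = 0.01 and rho = 0.01.

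In the 15 libraries with less Ttr, r lay between 0.10 for Slco1a4 and 0.51 for Bsg, with 0.29 for Slco1c1. The median of Slco1c1 was 15.1 FPKM there and 25.8 FPKM in the 15 libraries with more Ttr, and that of Cldn5 was 42.4 FPKM and 37.2 FPKM. Within the 6 VEH-HC mice alone, r was 0.97 for Slco1c1, 0.99 for Ocln, 0.77 for Bsg, 0.77 for Slco1a4, 0.33 for Emcn and 0.55 for Cldn5. Since all VEH-HC libraries lay above the gap and 5 of 6 Y397D-T3 libraries below it, the level of Ttr and the condition moved together for Slco1c1, Bsg, Ocln and Slco1a4, and the part of choroid plexus tissue in their differences was not tested beyond the covariate fit.

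**Figure D5:**
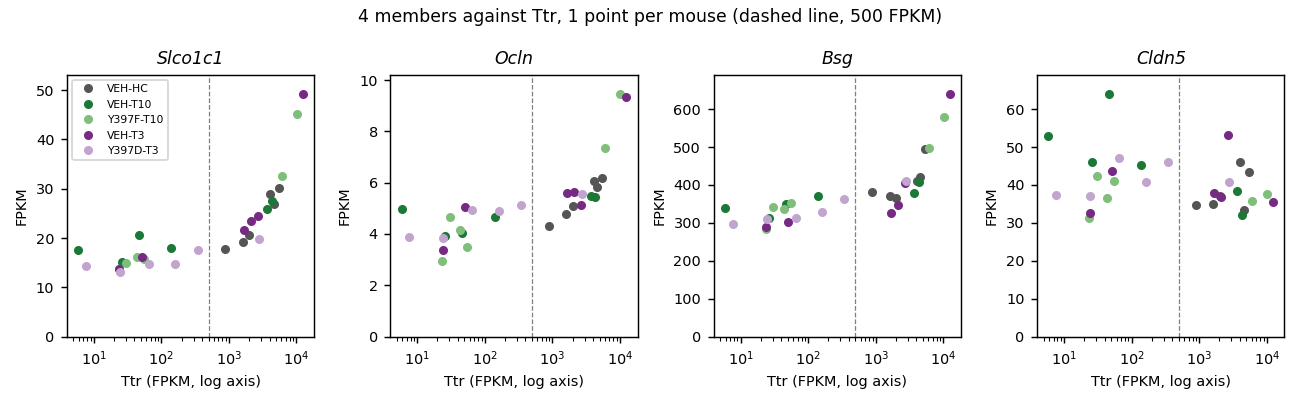
FPKM of Slco1c1, Ocln, Bsg and Cldn5 (y axes, linear from 0) against Ttr (x axis, FPKM on a log axis), 1 point per mouse coloured by condition, with a dashed line at 500 FPKM. Slco1c1, Ocln and Bsg climb with Ttr above the line (r = 0.949, 0.899 and 0.872 on log2 values), and Cldn5 does not (r = 0.007).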

How the data were processed

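RNA of 30 libraries, 1 per mouse, was sequenced as paired reads on NovaSeq and HiSeq instruments, and which library ran on which is not given in the sources used here. Per the labels and the study's methods the authors aligned to mm10 with TopHat2 2.1.1 and deposited FPKM from Cufflinks 2.2.1, whose strand handling is not given in the sources used here. All 30 columns were used. FPKM holds no totals. Relative depth came from the commonest ratio between libraries in 2642 rows with a mean FPKM of 0.005 to 0.1, and 1 of 435 pairs missed its fit by over 0.05 log2. Absolute depth is unknown, so the spread among mice gives the precision.

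Rows with a mean of at least 1 FPKM entered limma 3.58.1 (R 4.3.3) as log2(FPKM + 1), 1 coefficient per condition over 30 libraries, with a trend, contrasts and Benjamini-Hochberg adjustment over 13184 rows. Adding 1 understates changes of low genes. The script was tested on simulated data. Permutations used Python 3.11.15, numpy 2.4.6 and scipy 1.17.1. Gene positions come from GENCODE and promoters from RefSeq on GRCm38. For 8 members exons overlap another gene, so their reads may be shared.

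The members and lists were chosen with earlier results of these data known. Cldn5, Flt1, Rgs5, every member with an adjusted p under 0.05 and the largest positive and negative difference of each comparison are given in full, with called genes of 3 pathway lists. Egfl7, Abcg2 and the genes related to Ttr were named after their values were seen, as were details on mice that stand apart.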

Additional observations from a re-analysis of the deposited data

Results flagged for a closer look

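Among 185 sets of 6 mice (37 members in 5 conditions), 4 held 1 mouse whose distance to its neighbour was large beside the whole range of its condition (Dixon's test at the 95% level), and chance flags about 1 in 20. VEH-T3 mouse 4 had 49.2 FPKM of Slco1c1, with the next mouse at 24.4 FPKM, and 640.1 FPKM of Bsg, with the next at 404.9 FPKM. The same library had the highest Ttr of all 30, at 12450 FPKM. Slc2a1 was 31.7 FPKM in VEH-T10 mouse 1, with the next lowest at 40.6 FPKM, and this mouse was the lowest of its condition in 22 of 37 members. Myl9 was 10.6 FPKM in VEH-HC mouse 3, with the next at 15.0 FPKM, and this mouse was the lowest of its condition in 14 of 37 members. No cause was tested.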

How the results depend on the processing

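Counts of called members moved as follows. In VEH-T3 against VEH-HC, 3 became 0 without the filter on FPKM and with only the 12 libraries compared, 1 with centred libraries (Rgs5), 2 with a pseudocount of 0.1 (Slc7a5 lost, adjusted p = 0.0501), 1 with the 15 libraries of at least 500 FPKM of Ttr (Slc7a5), and 0 to 3 when 1 mouse was left out. In Y397D-T3 against VEH-HC, 2 became 4 with the 12 libraries (Pdgfrb and Slco1c1 besides Slc7a5 and Slco1a4), 6 by the Cyber-T-style test, 10 at an unadjusted p, 1 with Ttr as a covariate, 0 with high Ttr alone, and 2 to 3 when 1 mouse was left out (Myl9 added without Y397D-T3 mouse 1). Counts of 0 stayed 0 when any 1 mouse was left out in the other 5 comparisons. At an unadjusted p they were 2 in VEH-T10 and 2 in Y397F-T10 against VEH-HC, 1 in Y397F-T10 against VEH-T10, 2 in Y397D-T3 against VEH-T3, 1 in VEH-T10 against VEH-T3 and 2 for the difference between plasmid effects. The Cyber-T-style test gave 1 in VEH-T10 against VEH-HC and 1 in Y397D-T3 against VEH-T3. Both alternatives with Ttr were added after the data were seen. The smaller sets of libraries and the wider set of rows change the tests by construction, and other causes were not tested.

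Across alternative fits, single mice left out and centred libraries, signs reversed in 5 results, all of them not called. With high Ttr alone these were Cldn5 in Y397F-T10 against VEH-T10 (0.0616) and Anpep in VEH-T10 against VEH-T3 (-0.37). Bsg in Y397F-T10 against VEH-T10 reversed without Y397F-T10 mouse 2 (-0.0113, up to 0.1947 without mouse 1). With centred libraries Rgs5 with Vtn (r = -0.017) and Rgs5 with Pdgfrb (r = -0.056) reversed. Without the 2 mice farthest from the median of the first gene, Acta2 with Rgs5 also turned (r = -0.115). In that form Rgs5 with Pdgfrb turned as well (r = -0.132). With centred libraries 3 of 12 relations passed where 5 had (Cldn5 with Flt1 and Acta2 with Tagln lost), and the median r over member pairs was 0.24 where it had been 0.37.

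With the replicate number as a block, 2 members passed in VEH-T3 (Slc7a5 lost) and 2 in Y397D-T3 against VEH-HC and 0 elsewhere. The numbers do not pair the mice: same-numbered deviations correlated from -0.50 to 0.52, with 16 of 42 pairs over 0.1. Low FPKM and unknown depth limit Erg, Sox17, Abcc9, Anpep and Fli1.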
